A study of Mus musculus with 8 samples.

Results

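The respiratory chain and ATP synthase subunits are the nuclear-encoded proteins that carry electrons to oxygen and turn the resulting proton gradient into ATP. They were taken as every symbol of the count table that starts with Nduf (without the Ndufaf assembly factors), Uqcr, Atp5 or Cox followed by a digit from 4 to 8, together with Sdha to Sdhd, Cyc1 and Cycs, leaving out pseudogenes. This rule found 87 of 24421 symbols. It gave 36 members to complex I, 4 to complex II, 9 to complex III, 20 to complex IV, 17 to complex V and 1 gene for cytochrome c. Ndufa4 and Ndufa4l2 were counted with complex IV, and Atp5s and Atp5sl, which are not structural subunits, stayed in complex V by their symbols.

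Complex I (NADH dehydrogenase) and complex II (succinate dehydrogenase) pass electrons to ubiquinone. Complex III hands them to cytochrome c, a small mobile carrier that also triggers caspases when it leaks from mitochondria, and complex IV passes them to oxygen. Complexes I, III and IV pump protons, and complex V, the ATP synthase, lets them flow back to make ATP. Activated T cells enlarge this machinery together with glycolysis. The 13 subunits encoded by mitochondrial DNA are not among the symbols counted, so they could not be analysed here.

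The cells were CD4+ T cells sorted from digested knees of male mice. The animals were 16 weeks old and had antigen induced arthritis, in which immunised mice receive the antigen into the joint. Of the 8 libraries 4 were wild type and 4 were Slc7a5 knockout, and both groups had the disease. The comparison asks what loss of Slc7a5, the light chain of the LAT1 amino acid transporter, does to T cells in the inflamed joint. The labels give neither the deleted part of the gene nor the cell type of the deletion. They do not tie libraries to single animals, so p-values measure the spread between libraries, which may be technical in part.

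Sequences upstream of the members' starts are shown first because respiratory chain genes are known for sites of the nuclear respiratory factor NRF1 and of ETS family factors close to the start of transcription. RefSeq promoter windows of GRCm38.p6, from 250 bases before to 50 bases after the start, matched 71 of the 87 members. The NRF1 motif (GCGC, then any base, then TGCGC), searched on both strands, was present in 17 of 71 members (23.9%) and in 1402 of 27025 genes with a window (5.19%). The ETS core CCGGAAG, also on both strands, was present in 16 of 71 members (22.5%) and in 2683 of 27025 genes (9.93%). By complex, the NRF1 motif was found in 7 of 32 windows for complex I, 2 of 3 for complex II, 1 of 5 for complex III, 1 of 14 for complex IV and 6 of 16 for complex V. The windows below belong to Uqcrc1 and Sdhb, the members with the highest wild-type levels, and to Atp5o and Cycs, whose wild-type and knockout levels did not overlap. Capitals mark matches to either motif, and a match is a string of letters, not a measured binding site.
Uqcrc1: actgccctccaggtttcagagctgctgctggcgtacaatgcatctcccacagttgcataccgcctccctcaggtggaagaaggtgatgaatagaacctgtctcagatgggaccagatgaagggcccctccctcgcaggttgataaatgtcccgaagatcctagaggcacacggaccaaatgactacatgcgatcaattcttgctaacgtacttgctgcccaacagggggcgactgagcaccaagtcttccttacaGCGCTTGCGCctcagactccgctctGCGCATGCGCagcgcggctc
Sdhb: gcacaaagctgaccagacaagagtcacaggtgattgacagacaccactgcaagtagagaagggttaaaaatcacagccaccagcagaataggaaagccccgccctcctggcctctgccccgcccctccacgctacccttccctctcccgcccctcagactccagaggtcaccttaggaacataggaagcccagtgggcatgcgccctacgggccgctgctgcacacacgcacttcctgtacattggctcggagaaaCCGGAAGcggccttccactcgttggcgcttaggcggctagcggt
Atp5o: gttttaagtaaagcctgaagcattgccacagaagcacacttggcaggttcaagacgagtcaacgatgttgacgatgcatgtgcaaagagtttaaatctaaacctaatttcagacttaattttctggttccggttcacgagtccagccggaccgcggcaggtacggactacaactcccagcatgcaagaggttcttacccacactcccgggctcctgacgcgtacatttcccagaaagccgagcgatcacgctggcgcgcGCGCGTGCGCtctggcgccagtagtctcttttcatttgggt
Cycs: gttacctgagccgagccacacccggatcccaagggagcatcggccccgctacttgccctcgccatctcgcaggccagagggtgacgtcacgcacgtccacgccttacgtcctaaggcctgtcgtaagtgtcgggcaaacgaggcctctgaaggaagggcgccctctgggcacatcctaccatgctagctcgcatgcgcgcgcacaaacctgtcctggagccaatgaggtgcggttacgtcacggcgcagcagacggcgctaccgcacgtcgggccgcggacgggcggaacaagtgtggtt
The Uqcrc1 window lies at chr9:108936398-108936697 on the plus strand and holds 2 NRF1 matches. The Sdhb window at chr4:140961021-140961320, also on the plus strand, holds 1 ETS match. The Atp5o window at chr16:91931581-91931880 on the minus strand holds 1 NRF1 match, and the Cycs window at chr6:50566520-50566819 on the minus strand holds neither string.

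Total counts ran from 21873678 to 36436923 in wild type and from 18837650 to 25853856 in knockout. Levels are given as CPM, counts per 1000000 of the TMM-scaled library, always in the order of replicates 1 to 4, and group values as mean ± SD (n = 4), wild type first. Slc7a5 was counted 385, 194, 410 and 0 times across the wild-type libraries and 0 times in each knockout library. T cell identity genes (12 of 15 listed were in the file) summed to 8245 to 11222 CPM in the wild-type libraries and 6537 to 8788 CPM in the knockout ones. Of the 12, 2 had higher and 10 lower estimates in knockout (median log2 fold change −0.42). At an unadjusted p under 0.05 in edgeR 1 was higher and 3 lower, beside 1.87% and 1.97% of all tested genes. Genes with at least 1 count numbered 5221 in knockout replicate 4 and 7684 to 10139 elsewhere. Cd4 had 34 counts in that library, against 6184 to 20518 in the others. Knockout replicate 4 stands apart, and where a mean or an estimate leans on it, the value without it or each library's value is given as well.

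Most members were well expressed. Of the 87, 79 passed the filter on low counts and were tested, 4 were listed at 0 in all libraries and 4 more were too low to test. Uqcrc1, a core protein of complex III related to mitochondrial processing peptidases, was the highest, at 1108 ± 170.4 CPM in wild type, and ranked 103 of 24421 symbols. Sdhb, the iron-sulfur subunit of complex II, followed at 648 ± 119 CPM, then Cycs and Atp5o, a peripheral stalk subunit of the ATP synthase. Per kilobase of principal transcript, a scale on which levels of different genes can be set side by side, the median wild-type level of the tested members was 234 CPM per kb in complex IV, 206 in complex III, 155 in complex V, 128 in complex I and 122 in complex II. The complexes overlapped widely on this scale. Uqcrc1 at 670.1 CPM per kb, Ndufb8 of complex I at 655, Atp5o at 619 and Sdhb at 567 led, while Ndufs1, a core subunit of complex I, was at 15.9 and Sdhc, a membrane anchor of complex II, at 14.5.

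**Figure D1:**
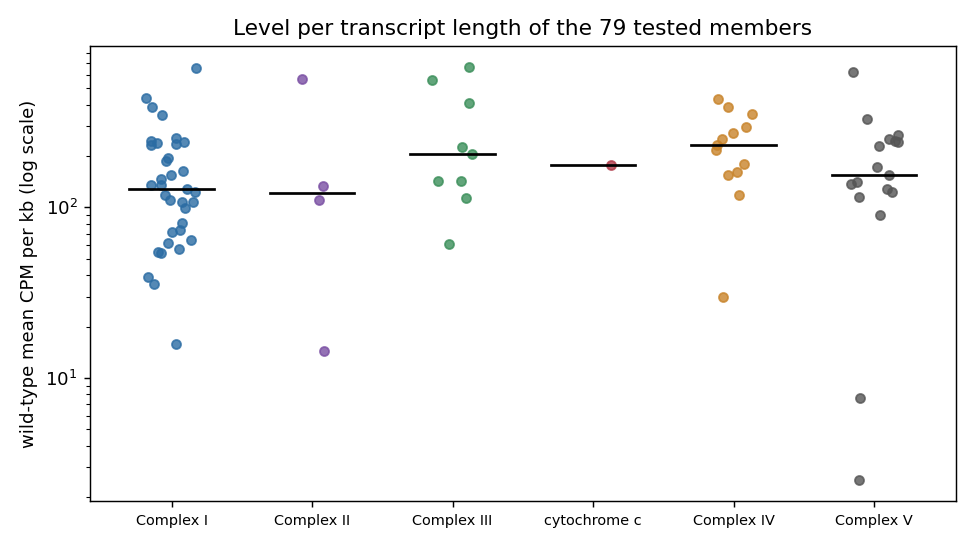
Mean wild-type level of each of the 79 tested members in CPM per kilobase of its principal transcript (log axis), by complex, with a black line at the median. The medians run from 122 in complex II to 234 in complex IV, and the members of complex I spread from 15.9 to 655.

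The members' median coefficient of variation between libraries was lower than that of other abundant genes. Over the 68 tested members with a mean of at least 50 CPM it was 21.6% in wild type and 40.6% in knockout. Over all 3480 tested genes with that mean it was 32.9% and 61.4%. The members' median wild-type level, 158 CPM against 110.4 CPM, was higher as well, and its part in the smaller spread was not tested.

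No member passed the test between genotypes. At an adjusted p under 0.05 in edgeR's quasi-likelihood test, 0 of 79 members and 0 of 8489 genes passed (percent called 0). At an unadjusted p under 0.05 in edgeR there were 3 members, beside 3.84% of all tested genes. Ndufs1 and Cycs had higher and Atp5o lower estimates in knockout, beside 1.87% and 1.97% of all tested genes. DESeq2 called 0 members beside 1.23% of all genes, and limma voom, with or without quality weights, called 0 members beside 0.0471% of all genes. The estimates lay on both sides of 0, with 37 members higher and 42 lower in knockout and a median log2 fold change of −0.02. Over all tested genes the median was −0.12 and 45.0% were higher, against 46.8% of the members. Among genes with a mean of at least 50 CPM the order turned. There 48.5% of 68 members were higher (median −0.01), against 53.3% of 3480 genes (median 0.05). A fit restricted to that abundance gave 21 higher and 47 lower members (30.9% higher), against 49.5% of its genes. With total counts in place of TMM scaling the split was 26 higher and 53 lower (32.9% higher), against 41.0% of all tested genes. With DESeq2 size factors it was 41 and 38 (51.9% higher), against 46.3% of all tested genes. In 1 member, Cycs, every knockout library lay above every wild-type library, beside 1.52% of all tested genes. In 5 members, Atp5o, Uqcrfs1, Ndufb7, Ndufs7 and Cox8a, every knockout library lay below, beside 4.62% of all tested genes.

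**Figure D2:**
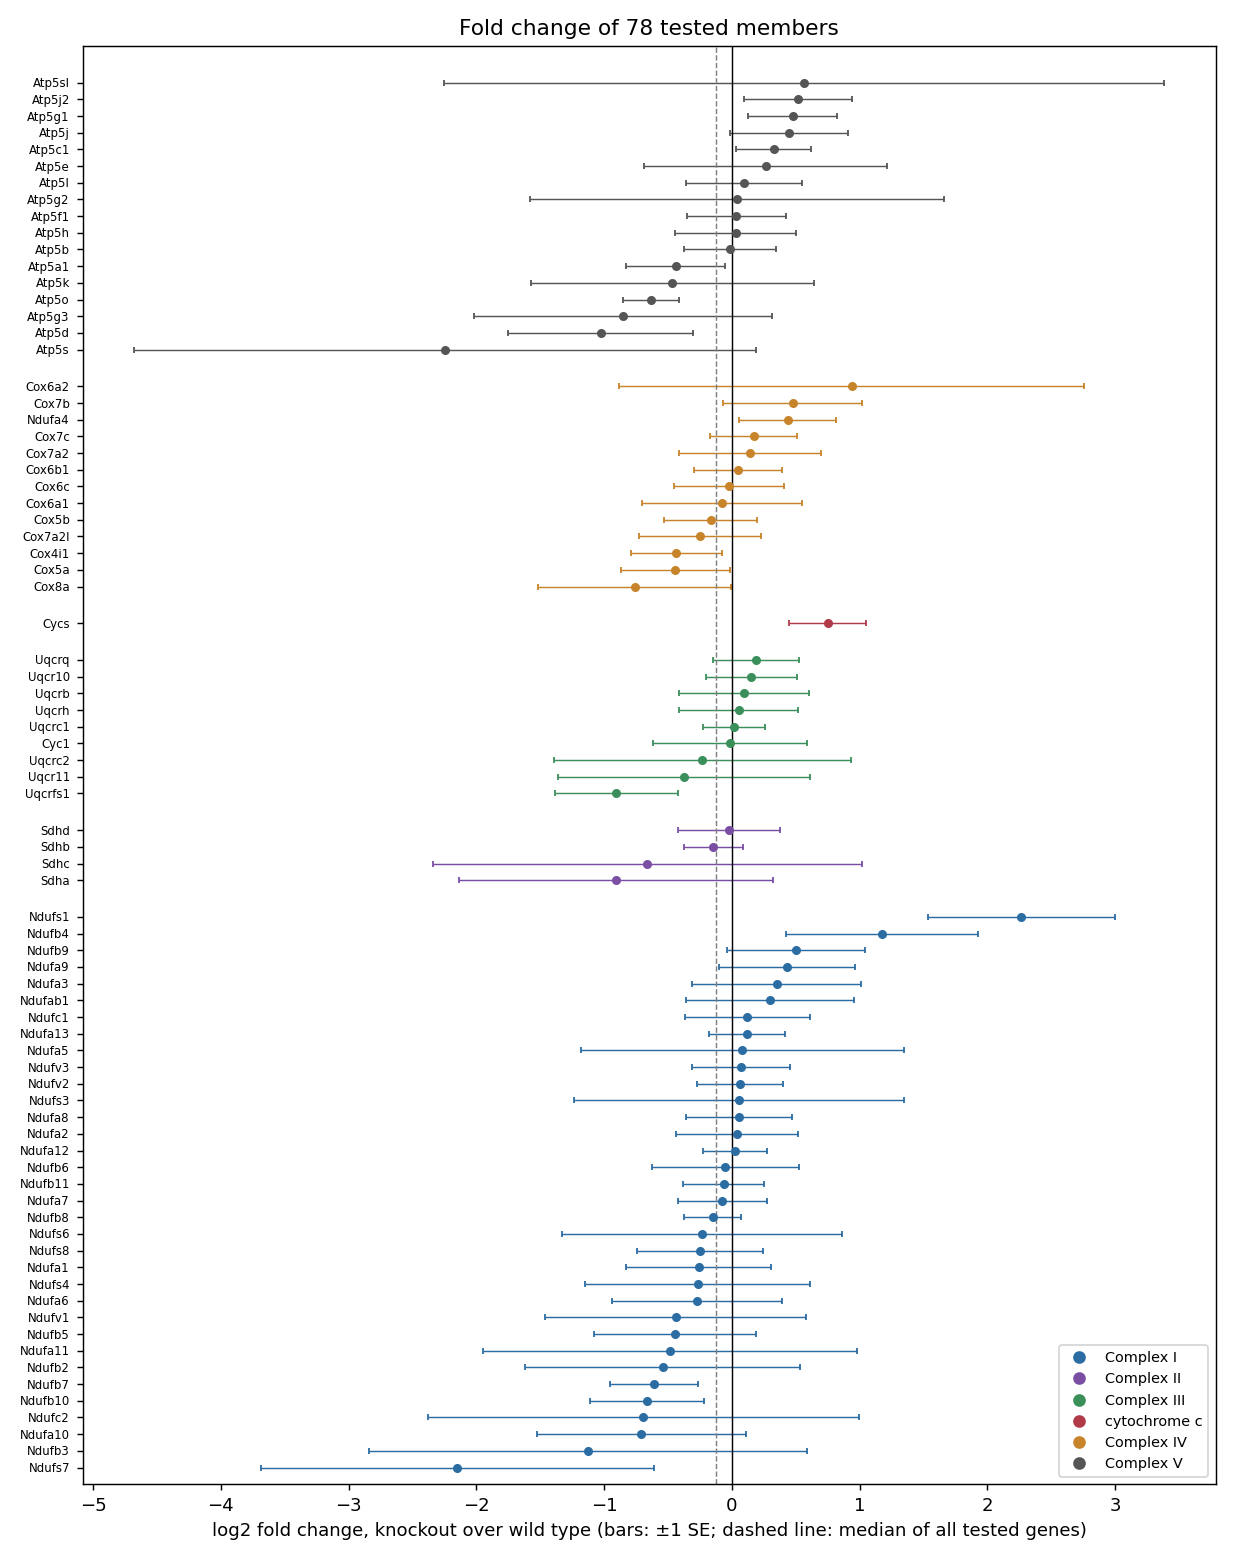
Log2 fold change of 78 of the 79 tested members, knockout over wild type, with bars of 1 standard error, grouped by complex. With this scaling complex II has 4 estimates below 0 and 0 above, Ndufs1 at 2.27 is the highest of all, and the dashed line is the median of all tested genes, −0.12.

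Summed over its members, none of complexes I to V was separated between genotypes, as each had knockout libraries on both sides of some wild-type library. Complex I summed to 4572 ± 327 against 4396 ± 654 CPM. Complex III summed to 2296 ± 307 against 2269 ± 514 CPM. Complex IV summed to 2034 ± 214 against 1963 ± 563 CPM. These 3 sums differed between genotypes by less than the spread between libraries. Complex II summed to 1090.3, 1335, 1225 and 1060.4 CPM across the wild-type libraries and 885, 976, 1154 and 771 CPM across the knockout ones. Knockout replicate 3 was the 1 knockout library inside the wild-type range, and the ratio of the means was 0.804. Complex V summed to 2844, 3048, 2929 and 2828 CPM across the wild-type libraries and 2389.6, 2255, 2420.1 and 4124 CPM across the knockout ones. Knockout replicates 1 to 3 lay below all wild-type libraries and knockout replicate 4 above them all, so the ratio of the means was 0.960 with that library and 0.8005 without it. For complex IV that ratio was 0.965 with and 0.825 without knockout replicate 4, and for complex I it was 0.961 and 0.897. In bulk samples, fewer cells of a type and less RNA per cell cannot be told apart.

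**Figure D3:**
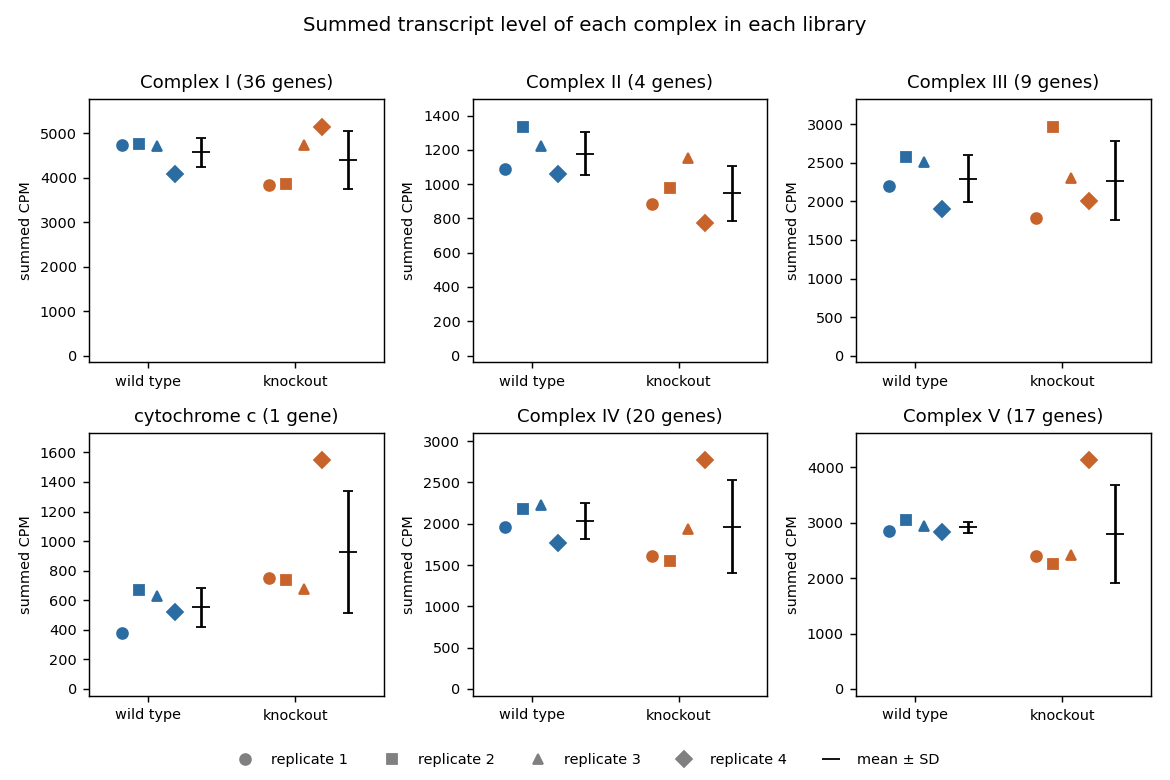
Summed CPM of the members of each complex (vertical axes include 0, a scale per panel) in the 4 wild-type libraries (blue) and 4 knockout libraries (orange), with marker shapes for replicates and black mean ± SD. In complex V, knockout replicates 1 to 3 sit between 2255 and 2420.1 CPM, below the wild-type libraries, and knockout replicate 4 is at 4124 CPM.

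The median log2 fold change was −0.08 in complex I (15 higher, 20 lower), −0.40 in complex II (0 higher, 4 lower), 0.02 in complex III (5 higher, 4 lower), −0.02 in complex IV (6 higher, 7 lower) and 0.03 in complex V (10 higher, 7 lower). Over the alternative settings these medians ran from −0.19 to 0.09 in complex I, −0.25 to 0.14 in complex III, −0.30 to 0.12 in complex IV and −0.39 to 0.15 in complex V, while that of complex II was at or below −0.18 in all 19 alternatives. Without knockout replicate 4 the medians of complexes I to V were −0.13, −0.24, −0.04, −0.30 and −0.37, beside −0.08 over all tested genes. As a share of all members' CPM, complex I took 33.8% ± 1.39 against 33.2% ± 2.19, complex V 21.6% ± 1.19 against 20.7% ± 3.26 and complex III 16.9% ± 0.947 against 17.4% ± 4.95. A difference between complexes was not tested, since their members are not replicates.

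In complex I, the 7 core subunits that carry the flavin and iron-sulfur clusters and the ubiquinone site summed to 851 ± 92.8 against 862 ± 108 CPM. By library the core sums were 888, 964, 763 and 788 CPM in wild type and 737, 813, 918 and 979 CPM in knockout. The 28 tested accessory subunits, which surround the core, summed to 3722 ± 292 against 3534 ± 551 CPM. By library these were 3842, 3796, 3953 and 3295 CPM in wild type and 3107, 3041, 3814 and 4172 CPM in knockout. Knockout replicate 4 was the highest library for both sums and raised both knockout means. Ndufs1, an iron-sulfur subunit of the core, measured 28.2, 64.3, 42.1 and 29.6 CPM across the wild-type libraries and 46.0, 194, 82.1 and 468 CPM across the knockout ones. Knockout replicates 2, 3 and 4 lay above every wild-type library and replicate 1 within their range. Its log2 fold change was 2.27 (SE 0.73, unadjusted p = 0.00954 and adjusted p = 0.637 in edgeR), 1.37 without knockout replicate 4 and 0.64 without replicates 2 and 4. It was 1.64 in limma voom and 0.92 with quality weights. Ndufs1 lies at chr1:63143596-63176833 (GRCm38, minus strand) and shares 6.16% of its exon bases with Eef1b2 and Ino80dos, so some reads may not be separable. Ndufs7, another core iron-sulfur subunit, measured 90.4, 70.7, 78.5 and 118 CPM across the wild-type libraries and 15.4, 12.1, 53.1 and 0 CPM across the knockout ones. The groups did not overlap, and the estimate did not pass (adjusted p = 0.9999 in edgeR). Ndufv1, which binds NADH, measured 133, 112, 116 and 128 CPM across the wild-type libraries and 111, 48.2, 199.6 and 0.627 CPM across the knockout ones.

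Among the accessory subunits of complex I, Ndufb7 measured 278, 261, 264 and 294 CPM across the wild-type libraries and 247, 142, 225 and 104 CPM across the knockout ones. Its groups did not overlap (log2 fold change −0.61, SE 0.35). Ndufb10 measured 232, 146, 161 and 155 CPM across the wild-type libraries and 56.4, 155, 128 and 98.3 CPM across the knockout ones, with knockout replicate 2 inside the wild-type range (−0.67, SE 0.45). Ndufb4 measured 41.7, 56.1, 76.4 and 47.4 CPM across the wild-type libraries and 54.1, 94.4, 51.9 and 299 CPM across the knockout ones. Its estimate (1.17, SE 0.75) was 0.25 without knockout replicate 4 and −0.06 without knockout replicates 2 and 4. Ndufb8 and Ndufa13, the most abundant subunits of this complex by CPM, were at 445 ± 39.9 against 401 ± 49.7 CPM and at 291 ± 51.7 against 316 ± 99.6 CPM (Ndufa13 269 CPM in knockout without replicate 4). The adjusted p of each of these in edgeR was 0.9999. Ndufs5 was listed at 0 in all 8 libraries, while BC002163, a copy that matches 53.3% of its transcript at 99.4% identity, had 87 to 350 counts per library, so the level of Ndufs5 could not be read from this table.

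Complex II, which also serves the tricarboxylic acid cycle and has no subunit from mitochondrial DNA, had lower estimates for all 4 subunits with TMM scaling, of which that of Sdhd was −0.02. The split was 1 higher and 3 lower with DESeq2 size factors or TMMwsp scaling, in DESeq2, and without wild-type replicate 4 or knockout replicate 3, and 2 and 2 with an offset for GC content. Sdha, the flavoprotein that oxidises succinate, measured 198, 383, 391 and 307 CPM across the wild-type libraries and 173, 94.8, 415 and 0.104 CPM across the knockout ones. Knockout replicate 3 was the highest of all 8 libraries and knockout replicate 4, with 2 counts, was near 0, so the log2 fold change was −0.91, SE 1.23 with that library and −0.50 without it, and −1.84 without knockout replicate 3. Sdhb measured 684, 756, 674 and 477 CPM across the wild-type libraries and 449.6, 699.7, 639 and 552 CPM across the knockout ones. These groups overlapped broadly (−0.15, SE 0.23), and with an offset for GC content the estimate turned to 0.12. The membrane anchors Sdhc and Sdhd were at 45.9 ± 21.2 against 29.0 ± 32.3 CPM and at 164 ± 28.6 against 162 ± 57.5 CPM. None of the 4 subunits passed (adjusted p = 0.9999 for each in edgeR).

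In complex III, Uqcrfs1, the Rieske iron-sulfur protein, measured 168, 186, 133 and 134 CPM across the wild-type libraries and 98.5, 83.5, 46.3 and 103 CPM across the knockout ones. All knockout libraries lay below all wild-type libraries. The log2 fold change was −0.91 (SE 0.48, unadjusted p = 0.0843 and adjusted p = 0.9999 in edgeR), and −1.04 without knockout replicate 4. Cyc1, cytochrome c1, measured 280.2, 254, 266 and 63.4 CPM across the wild-type libraries and 119, 453, 218 and 66.1 CPM across the knockout ones. The lowest wild-type and the lowest knockout library were both replicate 4, and the groups overlapped. The core protein Uqcrc1 measured 908, 1286, 1205 and 1031 CPM across the wild-type libraries and 833, 1676, 1048 and 932 CPM across the knockout ones. Its partner Uqcrc2 measured 108, 119, 88.5 and 150.1 CPM across the wild-type libraries and 131, 99.2, 166 and 0.0522 CPM across the knockout ones. In both core proteins the groups overlapped, and in Uqcrc2 knockout replicate 4 had 1 count. The small subunits had log2 fold changes smaller than their SE. Uqcrq was at 0.19, SE 0.34 (−0.0084 without knockout replicate 3), Uqcr10 at 0.15, SE 0.36 (−0.092 without knockout replicate 4) and Uqcr11 at −0.38, SE 0.99 (0.068 with the GC offset).

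Cytochrome c was the 1 member with all knockout libraries above all wild-type libraries. Cycs measured 381, 671, 632 and 523 CPM across the wild-type libraries and 751, 734, 676 and 1548 CPM across the knockout ones. Knockout replicate 3 lay just above wild-type replicate 2, and knockout replicate 4 was far above all others. The log2 fold change was 0.75 (SE 0.30, unadjusted p = 0.0297 and adjusted p = 0.9999 in edgeR), and 0.37 without knockout replicate 4. The transcript has a low GC content (40.8%, percentile 8.33 of abundant genes), and with the GC offset the estimate was 0.43. Cycs is 1 of 26 members with a near-identical copy in the transcript set (30.3% of its transcript at 99.9% identity), so a part of its reads may have been shared.

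In complex IV, Cox4i1, a regulatory subunit, measured 306, 264, 312 and 273 CPM across the wild-type libraries and 194, 120.0, 184 and 356 CPM across the knockout ones. Knockout replicates 1 to 3 lay below every wild-type library and knockout replicate 4 above them. The log2 fold change was −0.44, SE 0.35 with and −0.81 without that library. Cox5a was at 176 ± 48.1 against 129.9 ± 54.8 CPM (−0.44, SE 0.43; −0.77 without knockout replicate 1) and Cox5b at 188 ± 48.4 against 168 ± 39.4 CPM. Cox8a measured 133, 117, 148 and 116 CPM across the wild-type libraries and 77.2, 106, 115 and 6.16 CPM across the knockout ones, without overlap. Ndufa4, a subunit first assigned to complex I, was at 134 ± 26.8 against 182 ± 49.7 CPM (0.44, SE 0.38; 0.22 without knockout replicate 2). Cox7b was at 118 ± 33.6 against 164 ± 122 CPM (0.47, SE 0.54; −0.18 without knockout replicate 4). The adjusted p of each in edgeR was 0.9999.

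Complex IV subunits exist in tissue forms, and the general forms dominated here. Cox4i1 had 2159 to 11000 counts per library while its lung form Cox4i2 had 0 to 69. Cox6b1 was at 218 ± 43.9 against 225 ± 76.9 CPM (188 CPM in knockout without replicate 4) and the testis form Cox6b2 had 21 counts in 1 library. Cox7a2 and Cox7a2l, the latter a factor of supercomplex assembly, were at 106 ± 23.2 against 117 ± 70.3 CPM and at 166 ± 39.0 against 139 ± 89.9 CPM. Without knockout replicate 4 their knockout means were 84.3 and 95.6 CPM, which puts that of Cox7a2 below wild type. The heart and muscle form Cox7a1 had at most 38 counts. Cox7b2, Cox8b and Cox8c were listed at 0 in all libraries and Ndufa4l2 had 1 count in 1 library. The exception was Cox6a2, the heart and muscle form of Cox6a1. It measured 59.0, 17.2, 5.02 and 0 CPM across the wild-type libraries and 16.0, 21.7, 51.2 and 66.5 CPM across the knockout ones, while Cox6a1 was at 103 ± 31.6 against 97.2 ± 66.8 CPM (63.9 CPM in knockout without replicate 4). Skeletal muscle markers (12 of 12 in the file) summed to 45.0 to 63.2 CPM across the wild-type libraries and 0 to 87.7 CPM across the knockout ones. They were at 0 in knockout replicate 4, where Cox6a2 was highest. In that library 29.2% of all genes with a mean of at least 50 CPM elsewhere were under 1 CPM. Myh1, Myh2 and Myl1 were at 0 in every library, and 1 of the 12 markers, Mylpf, passed the filter on low counts. The part of muscle tissue in the level of Cox6a2 was not tested. Cox6a2 shares 10.3% of its exon bases with Itgad, whose part in its level was not tested.

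In complex V, the peripheral stalk subunit Atp5o, which helps hold the catalytic head in place, measured 558, 514, 497 and 506 CPM across the wild-type libraries and 304, 404, 308 and 322 CPM across the knockout ones. The groups did not overlap, and group values were 519 ± 27.3 against 334 ± 47.0 CPM. The log2 fold change was −0.63 (SE 0.22, unadjusted p = 0.0144 and adjusted p = 0.752 in edgeR), and −0.63 without knockout replicate 4. With the GC offset, whose unadjusted p was 0.0964 in edgeR, it was −0.41. The gene lies at chr16:91925214-91931687 (GRCm38, minus strand), and 1 near-identical copy matches 76.7% of its transcript. The other stalk subunits had overlapping groups, with Atp5f1 at 227 ± 66.4 against 232 ± 111 CPM, Atp5h at 152 ± 38.7 against 155 ± 94.4 CPM and Atp5j at 187 ± 47.5 against 254 ± 162 CPM. Without knockout replicate 4 their knockout means were 178, 109.6 and 179 CPM, all below the wild-type means. The 4 stalk genes together summed to 1127, 1195, 1115 and 897 CPM across the wild-type libraries and 848, 772, 795 and 1486 CPM across the knockout ones. As in the sum of the complex, knockout replicates 1 to 3 lay below all wild-type libraries and replicate 4 above them.

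The F1 part of the ATP synthase, which includes the catalytic head, is built from alpha, beta, gamma, delta and epsilon subunits. Atp5b, the catalytic beta subunit, measured 374, 312, 419 and 212 CPM across the wild-type libraries and 172, 297, 305 and 532 CPM across the knockout ones. Atp5a1, the alpha subunit, measured 255, 279, 203 and 535 CPM across the wild-type libraries and 249, 193, 146 and 349.5 CPM across the knockout ones. Both had overlapping groups. Atp5c1, the gamma subunit, was at 247 ± 35.7 against 309 ± 87.8 CPM, and at 267 CPM in knockout without replicate 4. Atp5d, the delta subunit, measured 119, 73.7, 121 and 115 CPM across the wild-type libraries and 39.6, 25.3, 58.0 and 87.4 CPM across the knockout ones. Knockout replicate 4 was the 1 knockout library inside the wild-type range, and the log2 fold change was −1.03, SE 0.72 with and −1.40 without it. The transcript of Atp5d is rich in GC (61.1%, percentile 99.0 of abundant genes), and with the GC offset its estimate was −0.73. The small membrane subunit Atp5j2 was at 148 ± 24.4 against 212 ± 109.9 CPM (0.52, SE 0.42; 0.12 without knockout replicate 4). None of these passed (adjusted p = 0.9999 for each in edgeR).

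The c subunit, which forms the rotating ring through which protons pass, comes from 3 genes whose mature proteins are known to be the same, while their transcripts differ enough for reads to be told apart. Over the last 225 coding bases before the stop codon, Atp5g2 differs from Atp5g1 at 34 bases and Atp5g3 at 45, and 52 of the 57 positions that vary among them are the last base of a codon. The first 90 of those bases are shown from GENCODE M21 transcripts, with the 22 positions that vary in capitals.
Atp5g1: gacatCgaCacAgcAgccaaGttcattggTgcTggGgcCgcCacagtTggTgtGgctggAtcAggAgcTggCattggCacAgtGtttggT
Atp5g2: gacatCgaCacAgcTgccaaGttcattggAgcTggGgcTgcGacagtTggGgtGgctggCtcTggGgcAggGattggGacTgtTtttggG
Atp5g3: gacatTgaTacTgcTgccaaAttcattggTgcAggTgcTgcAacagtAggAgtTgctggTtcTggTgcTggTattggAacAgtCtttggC
Atp5g1 measured 164, 178, 187 and 210.3 CPM across the wild-type libraries and 213, 202, 194 and 419 CPM across the knockout ones (log2 fold change 0.48, SE 0.35; 0.12 without knockout replicate 4). Atp5g2 measured 22.6, 50.1, 35.5 and 51.3 CPM across the wild-type libraries and 37.2, 72.6, 54.0 and 0 CPM across the knockout ones. Atp5g3 measured 159, 168, 119.8 and 211 CPM across the wild-type libraries and 129.5, 122, 113 and 0.0522 CPM across the knockout ones. Knockout replicate 4 thus held its c subunit transcripts almost wholly as Atp5g1 (99.99% of the 3 genes' CPM), whereas Atp5g1 took 44.5% to 54.7% in wild type and 51.0% to 56.1% in knockout replicates 1 to 3. The 3 genes summed to 389 ± 60.9 against 389 ± 24.6 CPM, and to 419 CPM in knockout replicate 4. Atp5g1 and Atp5g2 have 1 and 2 near-identical copies elsewhere, so their levels are less certain than that of Atp5g3.

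**Figure D4:**
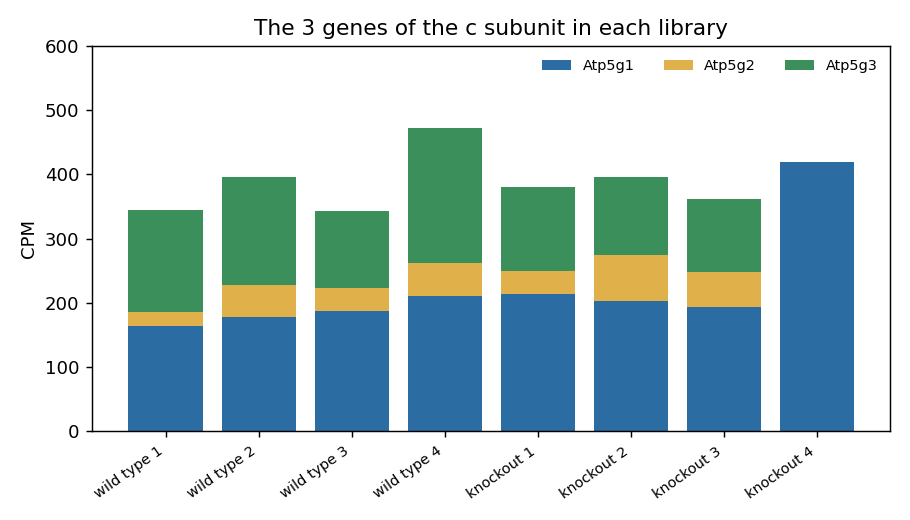
CPM of Atp5g1, Atp5g2 and Atp5g3 stacked for each of the 8 libraries. The mean total height is 389 CPM in both genotypes, and the bar of knockout replicate 4 is almost wholly Atp5g1.

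Members near 0 in a single library were a feature of knockout replicate 4. Of the 69 members with a mean of at least 50 CPM in the other 7 libraries, 7 (10.1%) were under 1 CPM there, namely Atp5g3, Ndufa11, Ndufs3, Ndufs7, Ndufv1, Sdha and Uqcrc2. In each of the other libraries 0 of 67 to 69 such members were under 1 CPM. Among all genes chosen the same way, 29.2% were under 1 CPM in knockout replicate 4, 7.33% in knockout replicate 2, 3.43% in wild-type replicate 4 and 0.115% to 2.07% in the rest. Of the 7 members, 4 belonged to complex I, 1 each to complexes II, III and V, and 0 to complex IV.

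**Figure D5:**
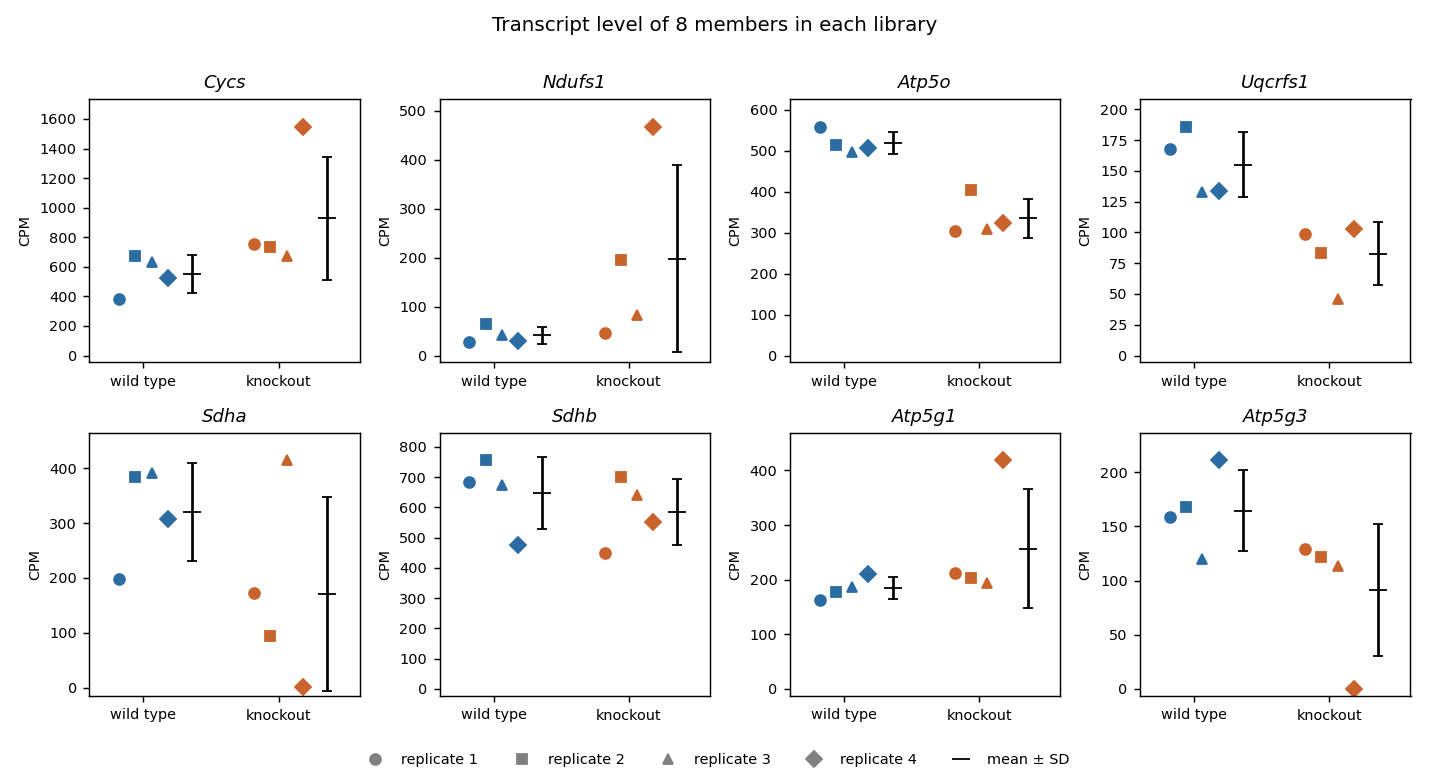
CPM of 8 members in the wild-type libraries (blue) and knockout libraries (orange), with marker shapes for replicates and black mean ± SD. Atp5o and Uqcrfs1 are lower in all knockout libraries, Cycs is higher in all of them, and knockout replicate 4 is near 0 for Sdha and Atp5g3 and highest for Cycs, Ndufs1 and Atp5g1.

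Without knockout replicate 4, more members had small unadjusted p-values. In edgeR 8 of 79 members were then at an unadjusted p under 0.05, 7 with lower estimates (beside 5.23% of all tested genes) and 1 with a higher one (beside 2.79%), and 0 passed after adjustment. The lower ones were Atp5o, Cox4i1, Atp5d, Uqcrfs1, Ndufs7, Cox7a2l and Ndufb5, and the higher one was Ndufs1. Knockout replicates 1 to 3 lay below all wild-type libraries in 9 members (6.28% of all tested genes) and above them in 1 (4.09%). This set of 9 held the 5 members separated in all 4 libraries and, in addition, Ndufb5, Cox4i1, Cox7a2l and Atp5d. Of the 79 estimates 57 were lower and 22 higher, with a median of −0.18 beside −0.08 over all tested genes.

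Members with a higher GC content tended to have lower estimates. Across the 68 tested members with a mean of at least 50 CPM, which share the same 8 libraries, log2 fold change and transcript GC content had a Pearson correlation of −0.36 and a Spearman correlation of −0.29. Across all 3387 tested genes of that abundance with a known GC content these were −0.31 and −0.34. The median GC content was 51.7% for the members and 49.0% for all those genes. With the GC offset 47 members had higher and 32 lower estimates and the median was 0.10, beside −0.10 over all tested genes. Markers of antigen-presenting and myeloid cells (14 of 14 in the file) summed to 1243 to 3039 CPM across the wild-type libraries and 1953 to 10892 CPM across the knockout ones, with Adgre1 at 0 in every library. Of 8 tested, 6 had higher and 2 lower estimates (median 1.81). At an unadjusted p under 0.05 in edgeR 4 were higher and 0 lower, beside 1.87% and 1.97% of all tested genes. The part of these cells in the members' levels was not tested.

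Genes that build, feed and regulate the chain were read from lists, and in edgeR 0 of their genes passed, as did 0 of all 8489 tested genes. At an unadjusted p under 0.05 in edgeR there were also 0 of their genes, beside 3.84% of all tested genes. The complex I assembly factors had 7 higher and 8 lower estimates among 15 tested (median −0.07). Among them Timmdc1, a membrane-arm assembly factor, was at 56.5 ± 11.98 against 121 ± 50.9 CPM. The complex IV assembly factors had 8 higher and 13 lower estimates among 21 tested (median −0.12). Those of complex II had 2 higher and 2 lower estimates among 4 tested (median 0.01) and those of complex III 3 higher and 2 lower estimates among 5 tested (median 0.24). Assembly factors and further subunits of complex V had 4 higher and 2 lower estimates among 6 tested (median 0.18). That list includes Atpif1, the inhibitor of ATP hydrolysis, which measured 132, 149, 157 and 67.1 CPM across the wild-type libraries and 105, 155, 159 and 246 CPM across the knockout ones. The tricarboxylic acid cycle and pyruvate dehydrogenase genes had 6 higher and 13 lower estimates among 19 tested (median −0.09). There Pdha1, a subunit of pyruvate dehydrogenase, was at 42.3 ± 16.1 against 118 ± 45.9 CPM (unadjusted p = 0.0701 in edgeR). Carriers and other electron donors had 6 higher and 9 lower estimates among 15 tested (median −0.06). Vdac3, an outer membrane channel, measured 153, 217, 207 and 170.0 CPM across the wild-type libraries and 219, 249, 224 and 523 CPM across the knockout ones, and Slc25a4, an ADP/ATP carrier, was at 403 ± 125 against 277 ± 121 CPM. Genes of mitochondrial DNA expression had 5 higher and 6 lower estimates among 11 tested (median −0.05). Nuclear regulators had 6 higher and 2 lower estimates among 8 tested (median 0.31). The 11 listed regulators summed to 408, 428, 381 and 345 CPM across the wild-type libraries and 248, 324, 291 and 1069 CPM across the knockout ones. Knockout replicates 1 to 3 thus lay below all wild-type libraries and knockout replicate 4 above them. Among these regulators Gabpa, an ETS factor of respiratory genes, had 7222 counts in knockout replicate 4 against 877 to 1907 elsewhere. The member Atp5j, also highest in that library, shares 12.7% of its exon bases with Gabpa, so some reads may not be separable.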

How the data were processed

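The 8 libraries (4 wild type, 4 Slc7a5 knockout) were read from a deposited table of raw counts of reads per gene symbol, which the authors had not normalized. HISAT2 2.1.0, featureCounts, edgeR 3.28.1 and mm10 are listed, per the submitters' processing notes. Annotation and strand setting: not given in the sources used here, so reads of overlapping genes cannot be told apart.

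Genes were filtered with filterByExpr of edgeR 4.0.16 (minimum count 10, minimum total 15; 8489 kept), scaled by TMM and tested with robust quasi-likelihood fits in R 4.3.3. Genotype was the only term, all genes shared 1 fit, and p-values were adjusted by Benjamini-Hochberg over all of them. Log2 fold changes are knockout over wild type, with SE taken as the fold change over the square root of F. Alternatives were other filters and scalings, DESeq2 1.42.0, limma 3.58.1 voom, the replicate number as a block, and each library left out. A GC offset per library (loess, span 0.75) and the removal of knockout replicates 2 and 4 were added after seeing the data. The fitting code was tested on simulated data.

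Positions, lengths and overlaps came from GENCODE M21 (GRCm38, the coordinates of mm10), which held all 87 members. Of these, 21 shared exon bases with another symbol. The largest shares were 29.98% in Ndufa13 (with Tssk6) and 19.75% in Uqcrc2 (with Pdzd9). Near-identical copies were blastn 2.17.0 matches of at least 95% identity over at least 30% of the principal transcript. Named were, per complex, the 2 higher and 2 lower members with the smallest p, the 2 most abundant, core subunits and tissue forms; in other lists, at most 2 genes with the smallest p. Fold changes are printed for the first of these. Ndufs7, Ndufb5, Ndufa11, Ndufs3, Uqcrc2, Atp5f1, Atp5h and Atp5j were named after their values were seen. Values of 1 member and of 1 gene in another list are not reported here. The members and lists were chosen with earlier results of these data known. Same-numbered libraries did not deviate together (correlations −0.02 to 0.05).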

Additional observations from a re-analysis of the deposited data

Results flagged for a closer look

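Of 92 groups of 4 values examined (named members and sums of complexes, each in each genotype), 10 had 1 library far from the other 3. The criterion marks about 1 in 20 independent groups by chance, but these groups share the same libraries and the sums contain the members, so the 10 were not set against that rate. In 6 of them the library was knockout replicate 4. There Cycs was at 1548 CPM (others 676 to 751), Atp5g1 at 419 CPM (194 to 213), Cox6a1 at 197 CPM (58.1 to 73.0) and the summed CPM of complex V at 4124 (2255 to 2420). In the same library Atp5g3 was at 0.0522 CPM (113 to 130) and Uqcr11 at 18.4 CPM (56.0 to 62.5).

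In wild-type replicate 4, Cyc1 was at 63.4 CPM (others 254 to 280) and the summed CPM of complex I at 4083 (4716 to 4760). In wild-type replicate 2, Atp5d was at 73.7 CPM (115 to 121). In knockout replicate 3, Uqcrq was at 360 CPM (212 to 231). The cause of these values was not tested.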

How the results depend on the processing

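The count of members passing was 0 under all 19 alternatives run. The count at an unadjusted p under 0.05 in edgeR was 3 of 79, beside 326 of all 8489 tested genes (3.84%). With no filter it was 5 of 83 members, beside 1288 of 12849 genes. Without knockout replicate 4 it was 8 of 79, beside 748 of 9334 genes. Without knockout replicates 2 and 4 it was 5 of 80, beside 569 of 10204 genes. With the GC offset it was 1 of 79, beside 242 of 8201 genes. Leaving out 1 library gave 2 to 8 members, beside 289 to 904 genes. With the replicate number as a block that count was 2 of 79, beside 327 of 8489 genes. Of the members 26 had higher and 53 lower estimates there (32.9% higher, median −0.13). Over all tested genes 31.1% were higher in that fit, with a median of −0.68. The block changed no call. The complex III median of 0.02 was −0.25 without knockout replicate 2, and ran from −0.25 to 0.14 over the libraries left out. Of the fold changes named, 10 values turned sign, in 6 genes. With quality weights in limma voom, Uqcr10 was at −0.13 and Cox7b at −0.18. Without knockout replicates 2 and 4, Uqcr10 was at −0.15, Cox7b at −0.046 and Ndufb4 at −0.062. Leaving out 1 library gave −0.092 (without knockout replicate 4) to 0.32 for Uqcr10, −0.18 (the same library) to 0.71 for Cox7b and −0.0084 (without knockout replicate 3) to 0.35 for Uqcrq. With the GC offset Sdhb was at 0.12 and Uqcr11 at 0.068. The cause was not tested. The median over all genes, −0.12, was −1.28 in limma voom, where the members' median was −0.18. The 86 alternative ratios of summed CPM moved by less than the spread between libraries, which knockout replicate 4 widens.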

Other observations

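Knockout replicate 4 held the highest of the 8 values for 44.1% of the 68 members with a mean of at least 50 CPM, against 28.9% of the 3480 tested genes of that abundance. It held the lowest value for 20.6% of those members and 36.4% of those genes. Wild-type replicates 2 and 3 held the lowest value for 0 of those members, and for 4.63% and 5.06% of those genes.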
